A study of Mus musculus with 4 samples.

Results

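TRAJ2, TRAJ4, TRAJ5, TRAJ6, TRAJ7, TRAJ9, TRAJ11, TRAJ12 and TRAJ13 are the 9 joining (J) segments at the 3′ end of the mouse T-cell receptor alpha (TRA) locus that occurred in these data. They were selected by segment name alone, with no measured value, from the high-confidence, full-length, productive TRA contigs of called cells. They accounted for 1348 of 13497 such contigs, in 1304 of 11975 cells with a TRA chain. Counting each distinct rearrangement (V segment, J segment and CDR3 nucleotides) once per library gave 824 of 8342.

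The contigs came from islet T cells of Tet2KO NOD mice and of NOD mice, the non-obese diabetic strain that develops autoimmune diabetes. Per the labels, Tet2-/- males on a B6 background were crossed to NOD females for over 14 generations, and the 2 genotypes are labelled KO and WT. Each genotype had 2 libraries, numbered as sets 1 and 2, and each library pooled the islets of 4 to 6 mice. The design text gives 10 to 13 weeks of age, whereas the protocol counts those weeks after an event abbreviated BTM and mentions bone marrow donors, so age and transplant status were not settled here. Pools are the replicates, and exact p-values by genotype cover the spread between pools only. P-values by J class cover how the within-library difference varied between pools. In the fits of single segments, by genotype or by J class, p-values cover counting error as well.

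A TRA gene is assembled in a developing T cell by joining 1 TRAV (V) segment to 1 TRAJ segment. The first joins usually pair J segments at the 5′ end of the J cluster with the V segments closest to it. If the receptor is not selected, the same allele can rejoin a V segment farther upstream to a J segment farther downstream, so the 3′ J segments are typically reached in late rounds. Both alleles rearrange in the same cell, and many T cells keep 2 productive alpha chains.

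The files held 43 TRAJ and 70 TRAV names, all of which were found in the GRCm38 annotation on chromosome 14. Order, copies and distances of V segments are those of GRCm38 and were not checked for the NOD locus. The germline sequences of the 9 segments are shown because they set the end of every CDR3 described here. Lower case marks the part that lies within the CDR3 and capitals mark the part in framework 4.
TRAJ13, chr14:54205741-54205797, plus strand: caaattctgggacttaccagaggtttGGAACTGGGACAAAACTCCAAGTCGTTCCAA
TRAJ12, chr14:54206553-54206610, plus strand: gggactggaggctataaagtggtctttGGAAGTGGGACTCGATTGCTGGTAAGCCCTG
TRAJ11, chr14:54207139-54207197, plus strand: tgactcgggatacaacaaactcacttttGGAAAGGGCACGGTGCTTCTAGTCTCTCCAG
TRAJ9, chr14:54209393-54209450, plus strand: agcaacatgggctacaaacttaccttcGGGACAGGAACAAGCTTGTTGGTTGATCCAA
TRAJ7, chr14:54211470-54211528, plus strand: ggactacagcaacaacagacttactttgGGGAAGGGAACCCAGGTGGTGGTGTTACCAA
TRAJ6, chr14:54212688-54212749, plus strand: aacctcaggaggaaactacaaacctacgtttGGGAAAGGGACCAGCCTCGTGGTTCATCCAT
TRAJ5, chr14:54213777-54213838, plus strand: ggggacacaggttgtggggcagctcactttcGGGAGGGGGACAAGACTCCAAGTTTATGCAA
TRAJ4, chr14:54216291-54216353, plus strand: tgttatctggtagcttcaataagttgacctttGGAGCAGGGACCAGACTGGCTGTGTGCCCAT
TRAJ2, chr14:54217836-54217901, plus strand: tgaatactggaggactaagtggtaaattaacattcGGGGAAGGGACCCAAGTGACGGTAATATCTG
The germline CDR3 part ran from 26 bases in TRAJ13 to 35 bases in TRAJ2. In TRAJ7 it ended with the codon TTG, for leucine, and in the other 8 segments with TTT or TTC, the phenylalanine codons usual at this position. The 7 bases just before the segment on the plus strand are where the recombination signal heptamer lies, and they read CACTGTG in 3 of the 9 segments and in 10 of the other 34, or 33.3% and 29.4%.

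Framework 4 in the contigs matched GRCm38, a C57BL/6 genome, in TRAJ13, TRAJ12, TRAJ7, TRAJ6, TRAJ4 and TRAJ2, with a single TRAJ12 rearrangement of 177 as the exception. It differed from GRCm38 in every rearrangement with TRAJ11, TRAJ9 or TRAJ5. Substitutions are counted from base 1 at the 5′ end of the segment, with the genome's base first. TRAJ11 carried G43A (position 54207181) in 48 of 48 rearrangements, and TRAJ9 carried T43C (position 54209435) in 140 of 140. TRAJ5 carried both G37C (position 54213813) and G40T (position 54213816) in 38 of 38. These bases were present in every library of both genotypes. Within the CDR3, 116 of the 140 TRAJ9 rearrangements also held C3G. A rearrangement trimmed past that base can hold another base there.

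The 9 segments were used unequally. TRAJ12 and TRAJ13 led with 177 and 176 rearrangements and TRAJ9 followed with 140. TRAJ7 and TRAJ6 had 86 each, TRAJ11 had 48, TRAJ4 had 46, TRAJ5 had 38 and TRAJ2 had 27. TRAJ12 and TRAJ13 overlapped in their shares across libraries and did not differ beyond that spread.

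The first comparison asked whether Tet2 deletion changed the use of these segments. Together they made up 7.44% and 10.2% of the rearrangements of Tet2KO NOD 1 and Tet2KO NOD 2, against 10.5% and 9.73% of those of NOD 1 and NOD 2. The genotypes overlapped, with means of 8.83% ± 1.96 in Tet2KO NOD and 10.1% ± 0.524 in NOD (SD, n = 2 libraries each). Counted by contig, so that large clones weigh more, the shares were 9.40% and 11.3% in the Tet2KO NOD libraries, against 10.1% and 9.43% in the NOD libraries. The genotype difference was -1.27 percentage points by rearrangement and 0.603 by contig. Without Tet2KO NOD 1 it was 0.110 by rearrangement, so its sign depended on the unit and on that library.

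TRAJ9 had the lowest unadjusted p of the 7 segments tested. It took 1.15% and 1.06% of rearrangements in the Tet2KO NOD libraries, against 1.93% and 1.80% in the NOD libraries, so both Tet2KO NOD libraries lay below both NOD libraries. Its log2 fold change was -0.77 (SE 0.32), with an unadjusted p of 0.0223 and an adjusted p of 0.976 in edgeR's quasi-likelihood test. Of all 96 TRAV and TRAJ segments tested, 0 passed an adjusted p of 0.05 (0%), 2 had an unadjusted p under 0.05, and DESeq2 called 0 as well.

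TRAJ13 took 1.05% and 2.11% of rearrangements in the Tet2KO NOD libraries, against 2.29% and 2.30% in the NOD libraries. Its log2 fold change was -0.52 (SE 0.32), and the 2 Tet2KO NOD libraries differed from each other by more than either NOD library did from Tet2KO NOD 2. For TRAJ12 the genotypes overlapped, with 1.62% and 2.64% in the Tet2KO NOD libraries, against 2.41% and 1.5% in the NOD libraries, and a log2 fold change of 0.06 (SE 0.31).

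TRAJ11 took 0.48% and 0.53% in the Tet2KO NOD libraries, against 0.58% and 0.65% in the NOD libraries. TRAJ7 varied least, between 1.00% and 1.06% in all 4 libraries. TRAJ6 ranged from 0.76% to 1.23% and TRAJ4 from 0.48% to 0.70%, with genotypes that overlapped. TRAJ5 and TRAJ2 did not reach a count of 10 in 2 libraries and were not tested. TRAJ5 took 0.38% and 0.44% in the Tet2KO NOD libraries, against 0.51% and 0.40% in the NOD libraries, and TRAJ2 took 0.48% and 0.44% in the Tet2KO NOD libraries, against 0.26% and 0.30% in the NOD libraries.

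All 7 segments tested had an adjusted p of 0.976 in edgeR's test. The median log2 fold change was -0.06 over the 7 segments tested and -0.03 over all 96. Both Tet2KO NOD libraries lay below both NOD libraries for TRAJ9, TRAJ11 and TRAJ13, 3 of the 7, where 11.5% of all 96 segments did so. They lay above for TRAJ7 alone of the 7, where 16.7% of all 96 did so.

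**Figure D1:**
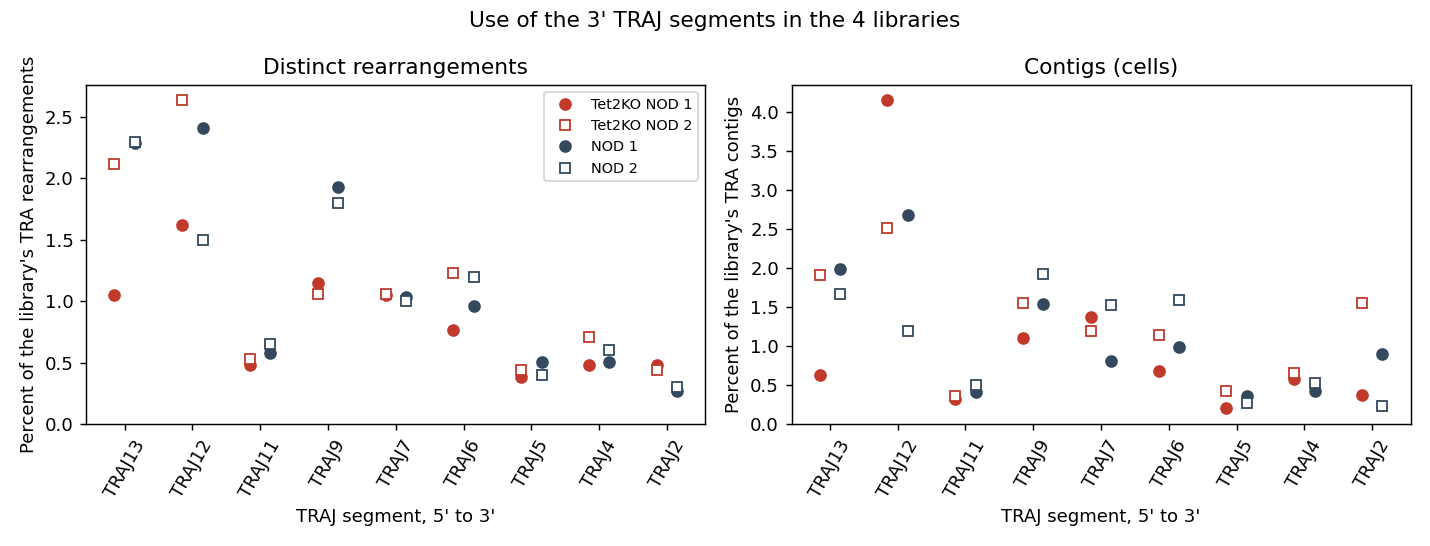
Share of each library's TRA rearrangements (left) and TRA contigs (right) with each 3′ TRAJ segment, ordered 5′ to 3′; red marks are Tet2KO NOD libraries, dark marks NOD libraries, filled for set 1 and open for set 2. TRAJ9 is lower in both Tet2KO NOD libraries by rearrangement, and by contig TRAJ12 reaches 4.15% in Tet2KO NOD 1 and TRAJ2 reaches 1.56% in Tet2KO NOD 2.

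The V segments joined to the 3′ J segments tell where along the locus the other end of the join lay. Each TRAV was ranked from 1, farthest from the J cluster, to 70, nearest to it. The mean rank was 35.2, 33.2, 34.9 and 36.9 for partners of the 3′ J segments in Tet2KO NOD 1, Tet2KO NOD 2, NOD 1 and NOD 2, against 37.7, 37.4, 38.0 and 37.4 for partners of all other J segments. By distinct rearrangement, partners of the 3′ segments thus lay farther upstream in 4 of 4 libraries, and the mean rank difference was -2.57 ± 1.55 (SD, n = 4 libraries). The exact two-sided sign-flip test over the 4 libraries gave p = 0.13, the smallest it can give, and 0.313 after Benjamini-Hochberg adjustment over 5 such measures. Counted by contig, so that large clones weigh more, the difference was -9.17 and -9.13 in Tet2KO NOD 1 and Tet2KO NOD 2. The difference was -3.97 and 0.775 in NOD 1 and NOD 2. Its mean was -5.37, with 3 of 4 libraries in that direction (exact sign-flip p = 0.25).

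In kilobases, partners of the 3′ segments averaged 919, 949, 917 and 881 kb upstream of the first annotated TRAJ in the same order of libraries, against 875, 878, 866 and 878 kb for the others. The shift was smallest in NOD 2, at 3.20 kb. By genotype the mean rank of partners of the 3′ segments was 34.2 ± 1.43 in Tet2KO NOD and 35.9 ± 1.41 in NOD (SD, n = 2), with an exact two-sided permutation p of 0.667, where the smallest possible is 0.33.

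Many TRAV families hold D, N and unmarked copies that lie in different parts of the locus, so a contig's V position can rest on the copy that was named. Averaging positions over the copies of a name left the difference in the same direction in 4 of 4 libraries, with 51.0 kb in place of 42.5 kb. Only 6 of the 70 names were of a family with no D or N name, and with them the 3′ segments had 9 rearrangements in all. This went by family number, so some of the remaining names may have no copy of their own.

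TRAJ56, TRAJ57 and TRAJ58, the 3 segments at the other end of the cluster, set the scale. Their partners had mean ranks of 45.2, 47.4, 45.1 and 44.4 in the 4 libraries and lay between 689 and 742 kb from the first TRAJ. Of their rearrangements, 55.1% ± 3.24 used the nearest of 3 bands of TRAV names of about equal number, against 32.2% ± 3.33 for the 3′ segments and 37.5% ± 0.329 for all J segments outside them (SD, n = 4).

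The 3′ segments used the farthest band at 27.9% ± 2.21, close to the 28.5% ± 1.01 of the other J segments, and the central band at 39.8% ± 2.94, against 34.0% ± 1.04. Across all 43 J segments the mean partner rank fell with J order from 5′ to 3′, with Spearman's rho of -0.69, and it was -0.88 across the 34 segments outside the group. Within the 9 segments rho was 0.08. These are descriptions across segments that share the same 4 libraries.

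TRAJ5 and TRAJ6 had the lowest mean partner ranks of the 9, 32.1 and 32.5. TRAJ4, TRAJ11 and TRAJ2 had the highest, 39.0, 38.3 and 38.0, and TRAJ13, TRAJ9, TRAJ7 and TRAJ12 lay between 34.5 and 35.9. Just upstream, TRAJ21, TRAJ18, TRAJ17, TRAJ16 and TRAJ15 had mean partner ranks of 30.8, 32.1, 35.7, 32.1 and 33.4. The upstream shift against all other J segments was thus not particular to the group. Neither V position nor TRAV use was tested against these neighbours alone.

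**Figure D2:**
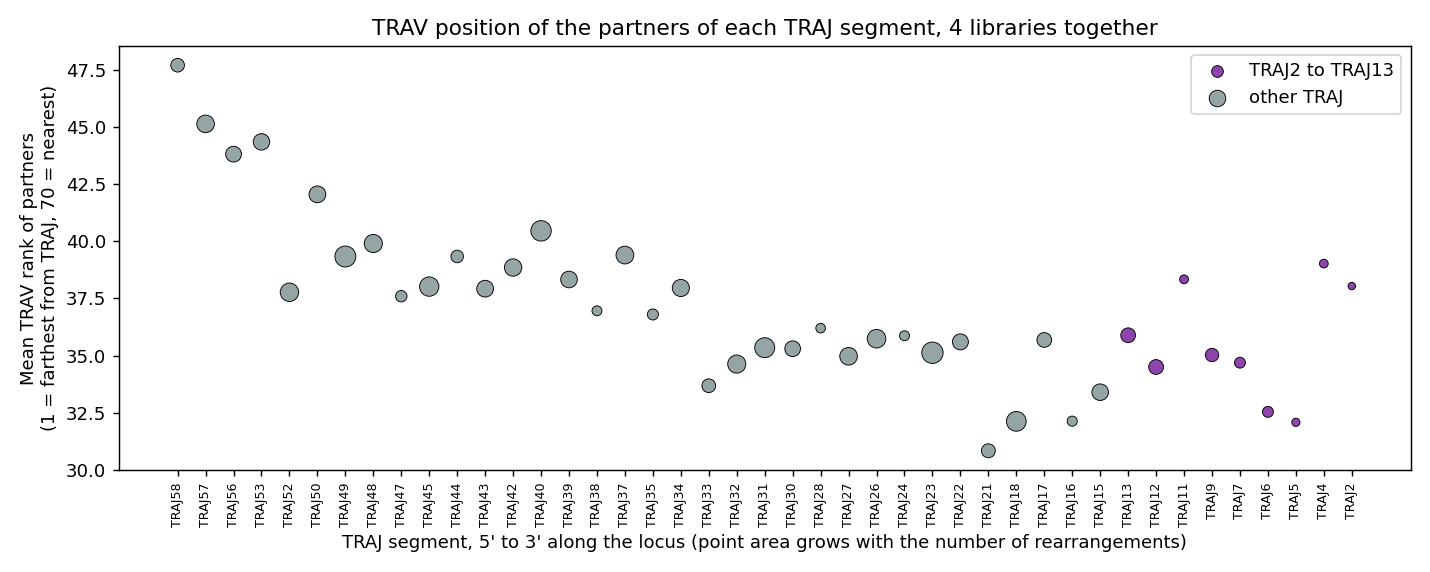
Mean TRAV rank of the partners of each TRAJ segment (y axis, 1 farthest from the J cluster, 70 nearest), with segments ordered 5′ to 3′ along the x axis; purple points are TRAJ2 to TRAJ13, grey points the other TRAJ, and the point area grows with the number of rearrangements. The rank descends from 47.7 at TRAJ58, and the 9 segments at the right spread between 32.1 and 39.0 with no further descent.

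The use of single TRAV segments was tested as well. Of 54 TRAV tested, 10 (18.5%) passed an adjusted p of 0.05 between the 3′ J segments and all other J segments (edgeR quasi-likelihood test with library as a block). Of these, 6 (11.1%) were used less with the 3′ segments and 4 (7.41%) were used more.

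The TRAV nearest the J cluster was almost missing from the 3′ segments. TRAV21-DV12, which can also join the delta locus nested between V and J, had 0, 0, 1 and 0 rearrangements with them in Tet2KO NOD 1, Tet2KO NOD 2, NOD 1 and NOD 2. With the other J segments it had 24, 36, 110 and 59. The ratio of its shares was 0.0398, with an exact 95% counting interval of 0.00100 to 0.224, and the adjusted p was 5.17e-07.

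TRAV5-4 had the smallest p. It took 5.13%, 2.59%, 0.920% and 2.05% of the rearrangements of the 3′ segments, against 7.73%, 5.98%, 6.70% and 6.85% of the others, and was lower in 4 of 4 libraries. Its log2 ratio was -1.86 (SE 0.28, adjusted p 2.86e-08). TRAV13-4-DV7 took 0.371% ± 0.487, against 1.79% ± 0.458 (SD, n = 4), with a log2 ratio of -1.99 (SE 0.65, adjusted p 0.0141).

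Taken as the 5 tested TRAV nearest the J cluster (rank 62 and above, a choice made after their values were seen), TRAV5-4, TRAV13-4-DV7, TRAV14-3, TRAV17 and TRAV21-DV12 all had log2 ratios of -1.48 or lower, and 3 of them passed. TRAV14-3 (adjusted p 0.130) and TRAV17 (adjusted p 0.167) did not pass in edgeR's test, and TRAV14-3 had a higher share with the 3′ segments in Tet2KO NOD 1 (2.56%, against 1.65%). Together the 5 made up 7.69%, 2.59%, 1.84% and 4.10% of the rearrangements of the 3′ segments, against 14.6%, 13.1%, 14.2% and 13.4% of the others. The highest value with the 3′ segments lay below the lowest with the others. TRAV5-4, TRAV13-4-DV7 and TRAV14-3 also have N copies in the central band, whose shares went the other way. Ratios of shares were 2.30 for TRAV5N-4, 1.61 for TRAV14N-3 and 9.12 for TRAV13N-4, which had too few rearrangements for the fit (8, against 8). The D copy TRAV14D-3-DV8 was lower. Lower shares of copied segments can thus rest on the copy named, and use summed over copies was not tested. TRAV17 and TRAV21-DV12 are of families with no D or N name.

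Nearness did not describe every called segment. TRAV9-4, at rank 61 and next to TRAV5-4, was used more with the 3′ segments, at 3.85%, 0.862%, 2.53% and 2.56%, against 0.515%, 0.490%, 0.511% and 1.16%. Its log2 ratio was 1.86 (SE 0.52, adjusted p 0.00492), and it was higher in 4 of 4 libraries.

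Among TRAV of the middle of the locus, some were used more and some less. TRAV5N-4 took 6.02% ± 3.22 with the 3′ segments, against 2.71% ± 0.430 with the others (SD, n = 4), with a log2 ratio of 1.20 (SE 0.27, adjusted p 1.71e-04). It was higher in 3 of 4 libraries and lower in Tet2KO NOD 1, where it had 2 rearrangements. TRAV9N-4 took 3.01% ± 0.963, against 0.969% ± 0.346, and was higher in 4 of 4. It is the N copy of TRAV9-4, so the rank given for TRAV9-4 can rest on the copy that was named. TRAV12N-2 took 4.11% ± 1.64, against 2.59% ± 0.625, and was higher in 3 of 4. TRAV5N-4 and TRAV5-4 are copies of 1 family that stood on opposite sides of the test.

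TRAV16N was lower with the 3′ segments in 4 of 4 libraries, at 1.91% ± 0.542, against 5.59% ± 0.860, with a log2 ratio of -1.39 (SE 0.29, adjusted p 1.06e-04). TRAV6N-7 was also lower in 4 of 4, at 2.99% ± 0.840, against 5.94% ± 0.752 (adjusted p 0.00789). TRAV14D-3-DV8, of the farthest band, had 0 rearrangements with the 3′ segments, which allows a share of up to 0.364%, against 68 with the others. It was at least 2.48-fold lower, taking 3 counts over all libraries as the floor, with an adjusted p of 0.0141.

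The 6 TRAV with the highest mean share among the 3′ segments included TRAV5N-4, TRAV12N-2, TRAV9-1 at 4.65% ± 3.95, TRAV13-1 at 4.31% ± 0.795, TRAV6D-6 at 3.43% ± 1.49 and TRAV4-3 at 3.21% ± 0.556. The last 4 had adjusted p between 0.507 and 0.855. Counted by contig, 6 TRAV passed in place of 10, and 3 of the 4 used more with the 3′ segments were lost. The adjusted p were then 0.258 for TRAV5N-4, 0.143 for TRAV9N-4, 0.898 for TRAV12N-2 and 0.258 for TRAV6N-7 in edgeR's test. DESeq2 called 2, TRAV21-DV12 and TRAV5-4, and leaving out NOD 1, which held 435 of the 824 rearrangements, left 6 of 43 tested. Without NOD 1 the adjusted p was 0.345 for TRAV14D-3-DV8, 0.855 for TRAV12N-2 and 0.555 for TRAV13-4-DV7 in edgeR's test. TRAV9N-4 was lost without Tet2KO NOD 2 (0.161) or NOD 2 (0.148), TRAV6N-7 without Tet2KO NOD 1 (0.0622) or NOD 2 (0.148), and TRAV13-4-DV7 without Tet2KO NOD 2 (0.0502).

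The difference between the 3′ and other J segments was then compared between Tet2KO NOD and NOD. The interaction of J class and genotype passed for 0 of 54 TRAV (0%) in edgeR's quasi-likelihood test, with 1 unadjusted p under 0.05, and DESeq2 called 0. TRB, the beta chain, is rearranged earlier and on another chromosome. Its V segments (TRBV) did not differ by J class of the paired alpha chain past the threshold in 20 of 20 tested (0% called in edgeR, 0 unadjusted p under 0.05, 0 by DESeq2).

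**Figure D3:**
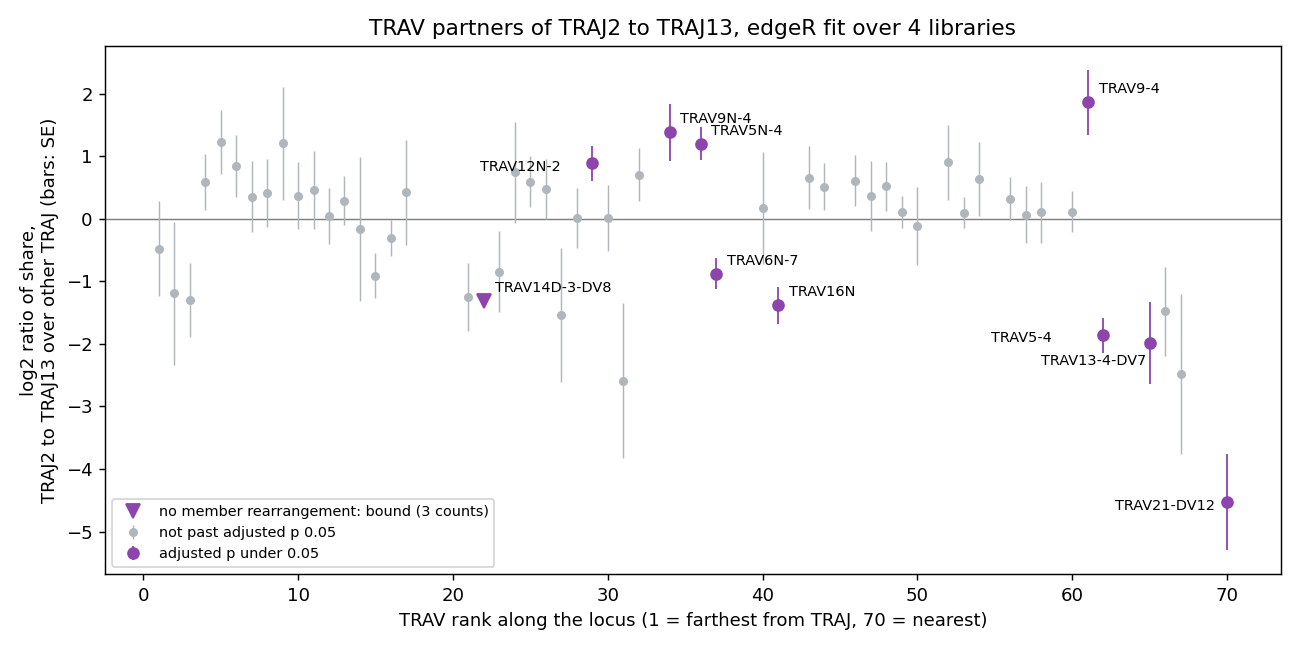
log2 ratio of each TRAV's share among rearrangements of TRAJ2 to TRAJ13 over its share among the other TRAJ (y axis, bars are SE from the edgeR fit of 4 libraries), against the TRAV's rank along the locus (x axis); purple marks passed an adjusted p of 0.05 and the triangle is a bound. At ranks of 62 and above all 5 points are below -1.4, and TRAV9-4 at rank 61 is above 1.8.

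The TRAV profile of the 9 segments pooled was most like that of TRAJ27, TRAJ17 and TRAJ32, by the cosine of mean TRAV shares over 4 libraries (0.845, 0.838 and 0.837). It was least like those of TRAJ57, TRAJ53 and TRAJ58 (0.460, 0.464 and 0.469) among the 34 other segments.

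A cell with 2 productive alpha chains shows both alleles at once. Among cells with 1 TRB, 33.1%, 17.4%, 16.5% and 24.2% of the contigs with 3′ segments lay in cells with a second TRA chain in Tet2KO NOD 1, Tet2KO NOD 2, NOD 1 and NOD 2. The shares were 17.7%, 19.9%, 22.9% and 22.6% for contigs with other J segments. The difference was positive in Tet2KO NOD 1 and NOD 2 and negative in the others, and averaged 2.09 ± 9.51 percentage points (SD, n = 4, exact sign-flip p = 0.875). Without Tet2KO NOD 1 it was -2.38 percentage points.

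In Tet2KO NOD 1, 38 of the 42 cells of its largest clone with a 3′ segment had a second chain, and without that clone its share was 14.6%. Among pairs seen in 1 cell only, a choice made after the values were seen, the shares were 22.6%, 20.6%, 20.7% and 26.8% with the 3′ segments, against 20.6%, 20.1%, 19.9% and 22.7% with the others. The median number of TRA UMIs per contig was 4, 6, 6 and 6 for the 3′ segments, against 5, 6, 5 and 6.

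The 2 alpha chains of a cell often carried 3′ segments together. In cells with exactly 2 TRA, and counting each clone once, 33.3%, 41.7%, 41.9% and 38.3% of the second chains of 3′ contigs also carried a 3′ segment. Of the second chains of other contigs, 6.12%, 6.86%, 6.85% and 7.49% did. A clone with a 3′ segment on both chains enters this count by each chain. The groups did not overlap, and the difference was 32.0 ± 3.71 percentage points (SD, n = 4, exact sign-flip p = 0.13, the smallest possible). Counting each clone once was chosen after the values were seen.

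Counted per contig, as first set, the shares were 10.5%, 32.3%, 40.4% and 28.6%, against 18.0%, 7.75%, 4.81% and 7.88%. Tet2KO NOD 1 was reversed, and there 38 cells of 1 clone paired a TRAJ12 chain with a TRAJ30 chain. The mean difference was 18.3 ± 18.3 percentage points (SD, n = 4, exact sign-flip p = 0.25). Without that library it was 26.9 percentage points.

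Over all libraries 846 clones had 2 chains. In 35 both were 3′ segments, in 105 only 1 of them was, and in 706 neither was. Both chains were thus 3′ segments in 35 of the 140 clones with at least 1 (25%), and in 20%, 26.3%, 26.5% and 23.7% of such clones in Tet2KO NOD 1, Tet2KO NOD 2, NOD 1 and NOD 2. Counted by chain, 70 of 175 second chains of 3′ chains were 3′ segments (40.0%), and 105 of 1517 second chains of other chains were (6.92%). TRAJ56 to TRAJ58 made up 2.29% of the second chains of 3′ chains, against 6.53% of the others. Segments from TRAJ33 to TRAJ15, which lie just upstream of the group, made up 46.9%, against 38.1%.

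In 6 of the 35 clones both chains carried the same J segment, 2 of them in Tet2KO NOD 1 and 4 in NOD 1. Without clones whose chains shared a J segment the shares were 14.3%, 41.7%, 35.9% and 38.3%, against 6.98%, 7.45%, 7.51% and 8.12%, higher in 4 of 4 libraries. In Tet2KO NOD 1 this rested on 14 chains, and its 3′ second chains were those of 1 clone. By genotype, with each clone counted once, the share was 37.5% ± 5.89 in Tet2KO NOD and 40.1% ± 2.52 in NOD (SD, n = 2, exact permutation p = 0.667).

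**Figure D4:**
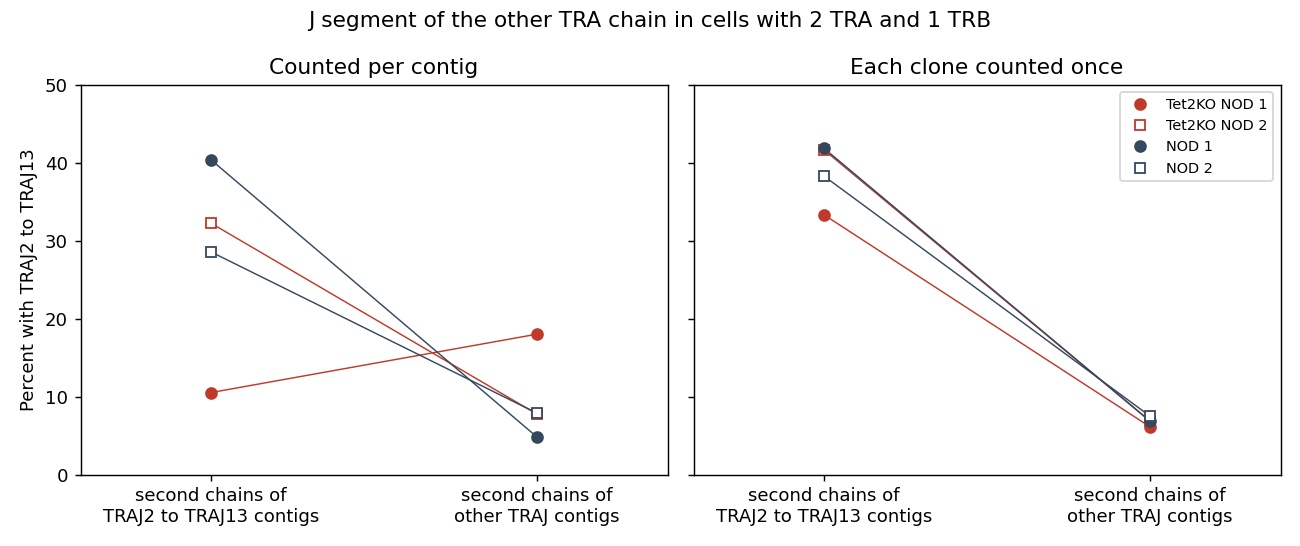
Percent of second TRA chains that carry TRAJ2 to TRAJ13 (y axis), for second chains of contigs with those segments (left of each panel) and of other contigs (right); lines join the values of 1 library, counted per contig in the left panel and with each clone once in the right panel. In the right panel the left values lie between 33.3% and 41.9% and the right values between 6.12% and 7.49%, and in the left panel Tet2KO NOD 1 runs the other way.

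Clone sizes were compared next, a clone being cells of 1 library with the same TRA and TRB rearrangement. Of the pairs with a 3′ segment, 16.4%, 14.9%, 13.2% and 12.3% were seen in 2 or more cells in Tet2KO NOD 1, Tet2KO NOD 2, NOD 1 and NOD 2. Of the other pairs, 19.0%, 15.3%, 13.7% and 13.3% were. The 3′ segments were lower in 4 of 4 libraries, with a difference of -1.09 ± 0.993 percentage points (SD, n = 4, exact sign-flip p = 0.13). With each library thinned to 1392 cells the difference was -0.09 percentage points (p = 0.875, exact).

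By cells the order was mixed. Of the cells counted by pair with a 3′ segment, 64.3% and 45.5% belonged to such clones in the Tet2KO NOD libraries, against 44.8% and 39.6% in the NOD libraries. For the other segments the shares were 53.6% and 39.5% in the Tet2KO NOD libraries, against 45.4% and 41.3% in the NOD libraries. The 3′ segments stood above the others in both Tet2KO NOD libraries and below them in both NOD libraries, and the exact permutation p for that difference between genotypes was 0.33, the smallest possible. The largest clone with a 3′ segment in each library was also left out, a choice made after the values were seen. The differences were then -0.845 and -1.67 percentage points in Tet2KO NOD 1 and Tet2KO NOD 2, and -3.79 and -5.66 in NOD 1 and NOD 2. The other segments kept all their clones there, so each difference could only fall. What the order rested on was therefore not tested. In Tet2KO NOD 1 the difference was 0.284 with both TRA chains of its largest such clone left out. With only the TRA chain of most UMIs in each cell, the differences were 2.17 and 7.38 in the Tet2KO NOD libraries, and 1.38 and -1.92 in the NOD libraries.

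**Figure D5:**
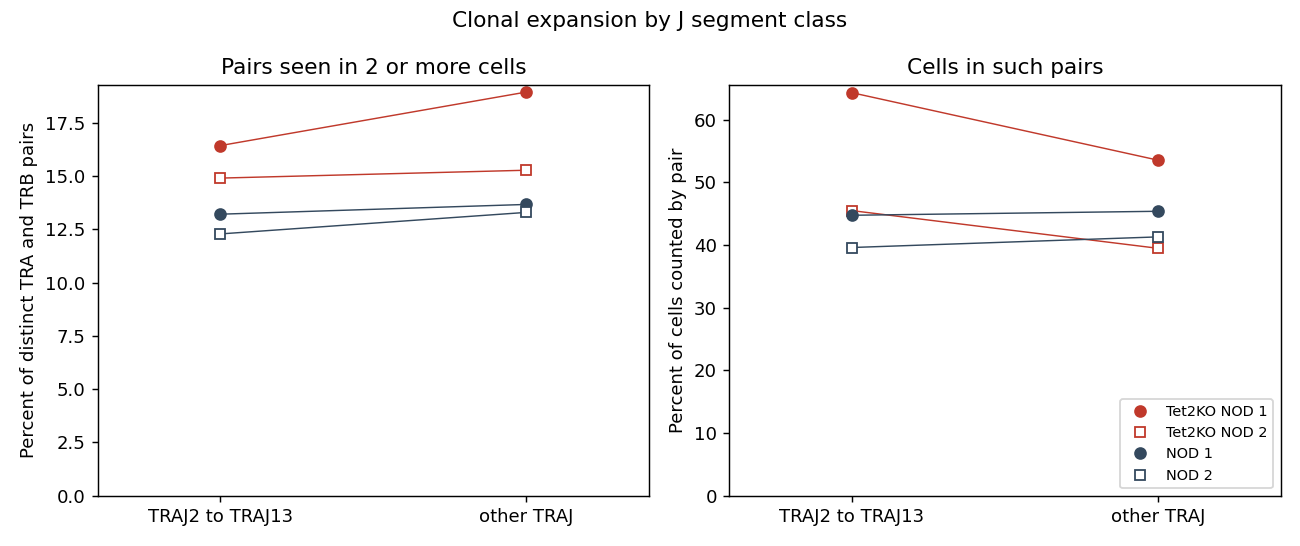
Percent of distinct TRA and TRB pairs seen in 2 or more cells (left panel) and percent of cells in such pairs (right panel) for TRAJ2 to TRAJ13 and for other TRAJ; lines join the values of 1 library, red for Tet2KO NOD and dark for NOD. By pairs all 4 lines are lower for TRAJ2 to TRAJ13; by cells Tet2KO NOD 1 stands at 64.3%.

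Clones of 10 or more cells with a 3′ segment numbered 3 and 2 in Tet2KO NOD 1 and Tet2KO NOD 2, and 8 and 2 in NOD 1 and NOD 2. The CDR3 sequences of the largest such clone of each library are shown because they hold the most cells. Capitals mark the bases that match the J segment's germline end without a break.
Tet2KO NOD 1, TRAV15D-1-DV6D-1 with TRAJ12: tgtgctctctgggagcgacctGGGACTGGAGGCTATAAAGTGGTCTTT
Tet2KO NOD 1, second TRA chain, TRAV2 with TRAJ30: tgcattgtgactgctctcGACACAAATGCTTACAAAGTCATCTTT
Tet2KO NOD 2, TRAV7D-4 with TRAJ2: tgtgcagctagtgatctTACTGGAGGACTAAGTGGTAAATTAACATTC
NOD 1, TRAV5N-4 with TRAJ2: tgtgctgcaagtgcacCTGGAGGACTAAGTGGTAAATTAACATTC
NOD 2, TRAV6-4 with TRAJ7: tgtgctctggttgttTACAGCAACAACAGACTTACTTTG
In Tet2KO NOD 1 the clone had 42 of 1604 cells (2.62%, Wilson 95% interval 1.94 to 3.52%). It paired TRAV15D-1-DV6D-1 and TRAJ12 with TRBV20 and TRBJ2-5, and it kept all 27 germline bases of TRAJ12. It made up 24.6% of the cells counted with a 3′ segment in that library. In 38 of its cells the second chain joined TRAV2 to TRAJ30, and 6 further cells had the same TRB without the TRAJ12 chain. The largest pair of the library, with 44 cells, was this TRAV2 and TRAJ30 chain with the same TRB.

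In Tet2KO NOD 2 the clone had 22 of 1392 cells (1.58%, 1.05 to 2.38%) and was the largest pair of the library. It joined TRAV7D-4 to TRAJ2 with TRBV1 and TRBJ1-4. In NOD 1 the clone had 34 of 5564 cells (0.611%, 0.438 to 0.853%), the sixth pair by size, and joined TRAV5N-4 to TRAJ2 with TRBV1 and TRBJ2-2. In NOD 2 it had 16 of 2475 cells (0.646%, 0.398 to 1.05%), the 11th pair by size, and joined TRAV6-4 to TRAJ7 with TRBV15 and TRBJ2-7. TRAJ2, the least used segment by rearrangement, thus held the largest such clone in 2 libraries. Intervals cover counting error only.

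Cells per pair showed the same spread by segment. TRAJ2 had 5.20 cells per pair in Tet2KO NOD 2 and 6.67 in NOD 1, against 1.5 in Tet2KO NOD 1 and 1.17 in NOD 2. TRAJ12 had 4.81 in Tet2KO NOD 1 and between 1.18 and 1.88 in the others. TRAJ5 had 1 cell in every pair of all 4 libraries, over 4, 5, 18 and 7 pairs. With all cells kept, whatever their TRB, it had 44 contigs over 38 rearrangements.

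Of 802 distinct rearrangements with a 3′ segment, 22 (2.74%) occurred in more than 1 library, against 214 of 7267 (2.94%) with other segments. The one with the most cells is shown because it had the same TRB in both of its libraries.
TRAV2 with TRAJ7, Tet2KO NOD 1 and NOD 1: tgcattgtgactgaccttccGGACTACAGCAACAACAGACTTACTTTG
It joined TRAV2 to TRAJ7 and was found in 13 cells of Tet2KO NOD 1 and 7 cells of NOD 1, with 1 TRB rearrangement, and none of these cells shared a cell barcode between the libraries. TRAV5N-4 with TRAJ6 had 1 cell in Tet2KO NOD 2 and 6 in NOD 2, also with 1 TRB. The others by number of cells were TRAV13-1 with TRAJ13, TRAV4-3 with TRAJ12, TRAV5N-4 with TRAJ13 and TRAV7D-2 with TRAJ13, with 8 to 10 cells and 2 or 3 TRB partners each. Of 13263 called barcodes, 81 were called in more than 1 library, and 18 of the 1348 contigs had such a barcode.

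The CDR3 was shortest with the segments whose germline CDR3 part was short. Its median length was 39 bases with TRAJ13, TRAJ12, TRAJ11, TRAJ9 and TRAJ7, 42 bases with TRAJ6, TRAJ5 and TRAJ4, and 45 bases with TRAJ2. These lengths are partly fixed by the J segment that defined the group and were not tested.

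The median number of germline J bases missing from the CDR3 was 1 for TRAJ13, TRAJ12, TRAJ11, TRAJ9 and TRAJ5, 2 for TRAJ6, 3 for TRAJ7 and TRAJ4 and 4 for TRAJ2. For TRAJ9 this read C3G as germline, and against the GRCm38 base it was 3. The whole germline CDR3 part was kept in 45.2% of TRAJ12 rearrangements, the highest of the 9.

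The cells with a 3′ segment carried alpha-beta receptors. Of the 1304 cells, 1277 had a TRB and 1202 had exactly 1, 5 had a gamma or delta chain contig and 0 had an immunoglobulin contig. Called cells numbered 1957 and 1664 in the Tet2KO NOD libraries, against 6835 and 2889 in the NOD libraries, so shares in Tet2KO NOD rest on fewer rearrangements (78 and 116 with a 3′ segment, against 435 and 195).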

How the data were processed

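The 4 contig tables hold, per the file headers, read and UMI (unique molecular identifier) counts per contig as whole numbers, beside the segments, CDR3 and flags of that contig. Cell Ranger 7.0.1 made them and the build is GRCm38 (mm10), per the submitters' processing notes. Contig length in bases was deposited by the authors as well and was not used in a test. Which V(D)J reference was used is not stated in the labels or headers. The extraction protocol in the labels describes nuclei, not receptor libraries.

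Positions came from the GENCODE annotation and sequences from the RefSeq copy of GRCm38. Distinct rearrangements per segment were tested with edgeR 4.0.16 (quasi-likelihood, R 4.3.3; library size the number of rearrangements; count of at least 10 in 2 columns; Benjamini-Hochberg), with DESeq2 1.42.0 as an alternative. The scripts were tested on simulated data. Values per library were compared by exact two-sided sign-flip or permutation tests, whose smallest p are 0.13 and 0.33. Cells with over 1 TRB were left out of pairs. The correlation of same-set deviations from the genotype means was -0.134 over 96 segments. It cannot show whether libraries of 1 set were handled together, so the set number was a block in an alternative only. Named TRAV were those that passed, the 6 most used, and exceptions given as chosen later. Named clones were the largest of each library and the 6 shared rearrangements with the most cells. The segments, lists and tests were chosen with earlier results of these data known. Reads in the contig tables numbered 85137263 to 220516119 per library.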

Additional observations from a re-analysis of the deposited data

Results flagged for a closer look

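Nonproductive TRA contigs, which entered no comparison, carried a 3′ segment in 13.9% and 10.6% of cases in Tet2KO NOD 1 and Tet2KO NOD 2, above the 10.4% and 10.2% of NOD 1 and NOD 2. With each V, J and clonotype combination counted once the shares were 11.2% and 10.5% in the Tet2KO NOD libraries, against 12.5% and 11.7% in the NOD libraries, so the order turned.

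The share of cells in clones of 2 or more cells differed between 3′ and other segments by 10.8 and 6.02 percentage points in Tet2KO NOD 1 and Tet2KO NOD 2, against -0.638 and -1.70 in NOD 1 and NOD 2. Both Tet2KO NOD libraries moved one way and both NOD libraries the other. This did not hold with only the TRA chain of most UMIs, where NOD 1 was 1.38. Without the largest clone with a 3′ segment in each library the Tet2KO NOD differences were -0.845 and -1.67. The other segments kept all their clones in that comparison, so each difference could only fall. With all clones kept, the exact permutation p between genotypes was 0.33, the smallest that 2 against 2 libraries can give.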

How the results depend on the processing

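The count of TRAV that differed by J class was 10. It was 11 of 70 without the filter on low counts, 2 with DESeq2 and 6 by contig. When libraries were left out in turn it was 6 to 12. Of the 10 TRAV named for passing, none changed sign under an alternative in which it was tested, and TRAV5-4 and TRAV21-DV12 passed in all of them. Segment use by genotype, the genotype interaction and TRBV partners had 0 calls in every alternative, including the set numbers as a replicate block (0 calls); with crossed set numbers the count was also 0. The mean V rank difference was -3.25 to -2.01 when libraries were left out in turn and -5.37 by contig, where NOD 2 was 0.775. The difference in cells of expanded clones was -2.99 percentage points without the largest clone with a 3′ segment in each library. The other segments kept all their clones there, so this difference could only fall. The second TRA difference was -2.38 to 4.91 percentage points without 1 library, negative without Tet2KO NOD 1. The share of the 9 segments by genotype was -2.66 to 0.110 percentage points without 1 library and 0.603 by contig. Other values that changed sign were log2 fold changes by genotype and log2 ratios by J class. By genotype, TRAJ6 did so with paired clonotypes (0.030). Without 1 library, TRAJ4 (-0.17 to 0.39), TRAJ6 (-0.45 to 0.24) and TRAJ12 (-0.35 to 0.52) did so. By J class, TRAV9-1 did so with DESeq2 (-0.10), by contig (-0.63) and without 1 library (-0.25 to 0.27). TRAV13-1 did so with DESeq2 (-0.12) and TRAV6D-6 by contig (0.067). Where DESeq2's dispersion trend could not be fitted, gene-wise values were used. Depth limits the Tet2KO NOD values most, since they rest on 78 and 116 rearrangements.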
